A study of Mus musculus with 11 samples.

Results

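The livers of mice that ate a high-fat diet and then fasted were compared with the livers of mice fed chow, on 7 of the 11 arrays of the series. The members are the arrays labelled Fasted Mouse 1 to 3 and Control Mouse 1 to 4, chosen by their labels alone. All mice were C57BL/6J, which the labels write as C57/BL/6J, and carried no other named allele or transgene. Control mice ate rodent chow with 6.5% fat for 10 weeks and were not fasted. Fasted mice ate a diet with 42.16% fat over the same 10 weeks and had no food for the last 48 h, so diet and fast differ together between these groups and their separate contributions cannot be told apart here. A further group, on the same high-fat diet but fed to the end, gives the level of a gene under the diet alone, and its arrays 1 to 3 are cited for that purpose only.

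The labels name 9 control, 4 fasted and 5 fed high-fat mice, and each array is taken as 1 mouse. Each array carried the Cy5-labelled RNA of a liver beside Cy3-labelled RNA of a universal mouse reference, so every value is a ratio of liver over reference. The values were read as log2, although the sources used here state no base. A value above 0 means more signal from liver than from reference relative to the median spot of that array, and levels of different genes are not compared.

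In a fed liver, insulin drives glycolysis, fatty acid synthesis and the making of plasma proteins. During a long fast, insulin falls and glucagon and glucocorticoids rise, and the liver turns to oxidising fatty acids, making ketone bodies and supplying glucose from amino acids. A high-fat diet by itself also alters lipid synthesis, bile acid synthesis and the cytochrome P450 enzymes that handle drugs and steroids.

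Of the 17280 spots, 3864 to 5567 held a value on a control array and 4013 to 5175 on a fasted array. The spread of the ratios, as a median absolute deviation, was between 0.43 and 0.52 on control arrays and between 0.44 and 0.49 on fasted arrays, with an exact permutation p of 0.971 (two-sided, where the smallest p of 3 against 4 arrays is 0.0286). Arrays correlated with r of 0.80 to 0.94 within groups and 0.76 to 0.86 between them. Control array 2 had the most filled spots and the highest liver gene ratios, and for many lists, though not all, the median without it is given as well. The liver label was checked on hepatocyte markers, which had ratios well above 0 on all 7 arrays, with a mean between 1.75 and 2.86 on control arrays and between 1.34 and 1.55 on fasted arrays over the 12 markers filled on every array. Markers of red cells had no tested member.

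After centring and averaging by symbol, 3905 genes had a value on 2 or more arrays of each group and were tested. With limma's moderated test and Benjamini-Hochberg adjustment, 47 of them (1.2%) passed at an adjusted p under 0.05. The calls comprised 35 rises (0.896%) and 12 falls (0.307%). Without an adjustment, 724 genes (18.5%) had p under 0.05, of which 386 were higher (9.88% of all) and 338 lower (8.66%). Differences above 0 made up 50.1% and those below 0 made up 49.9% of the genes. Rises ran from 0.64 to 3.65 log2 units with a median of 1.08, and falls from -0.67 to -2.23 with a median of -1.19. Every called gene had control and fasted arrays that did not overlap, as had 899 genes (23%) of all tested, 12% with the fasted arrays higher and 11% with them lower. With the values as deposited, which puts the median of all genes at 0.20, rises made up 90.8% of 152 calls, against 74.5% of the 47 with centred arrays. The count fell to 10 without control array 1, 14 without control array 3, 9 without fasted array 1, 8 without fasted array 2 and 31 without fasted array 3, and it was 86 without control array 2. Cct6b, Mcts1, Nt5c3, Slc18a3 and 1 spot without a symbol were called under every alternative that tested them, but for Slc18a3 leaving out any array that holds its values removed it from the test. That statement and the ranges given over all alternatives leave out the replicate block, which called 0 genes.

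**Figure D1:**
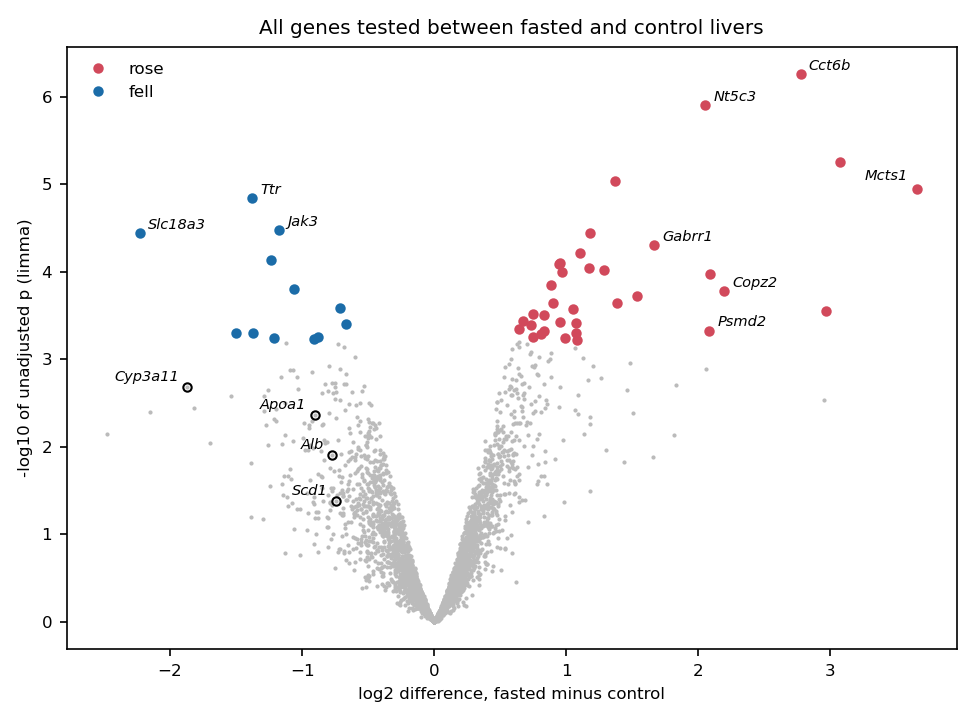
Each point is 1 of the 3905 genes tested. The horizontal axis is the log2 difference of fasted minus control and the vertical axis -log10 of limma's unadjusted p. The 35 rises (red) reach 3.65 and the 12 falls (blue) reach -2.23, while the open circles of Cyp3a11, Apoa1, Alb and Scd1 lie on the lower side without passing.

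The largest rise was in Mcts1, whose protein acts in ribosome recycling and translation re-initiation. Its ratio was 0.30, 2.14, 1.32 and 2.34 on control arrays 1 to 4 and 5.22, 5.57 and 4.74 on fasted arrays 1 to 3. All fasted arrays lay above all control arrays, although the control arrays themselves were widely spread. The difference was 3.65 ± 0.44 (SE, limma adjusted p = 0.00878), or 12.6-fold. Fed high-fat arrays 2 and 3 gave 4.76 and 3.52, also above every control array.

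Cct6b encodes a subunit of the cytosolic chaperonin and is best known from testis. Control arrays 1, 3 and 4 gave 0.24, -0.28 and -0.07, and the fasted arrays gave 2.41, 2.73 and 3.07. Each group lay within a narrow band and the bands were far apart, with a difference of 2.77 ± 0.21 (SE, limma adjusted p = 0.00217). Of the fed high-fat arrays, at 0.49, 0.16 and 1.79, array 2 lay among the controls and the others between the groups.

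Nt5c3 encodes a pyrimidine nucleotidase that dephosphorylates UMP and CMP. It had 0.49, 0.43, 0.42 and 0.73 on the control arrays, 2.13, 2.94 and 2.64 on the fasted arrays and 1.03, 1.49 and 1.41 on the fed high-fat arrays. The control arrays were the lowest, the fed high-fat arrays intermediate and the fasted arrays the highest, with no overlap between the 3 sets. The fasted minus control difference was 2.05 ± 0.19 (SE, limma adjusted p = 0.00241), and the gene's 2 spots gave 2.03 and 2.00. The second of these spots was filled on 2 arrays of each group and did not pass on its own (adjusted p = 0.0726).

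Copz2, a subunit of the COPI coat of Golgi vesicles, had 3.03, 3.80, 2.38 and 3.56 on the control arrays and 5.23, 4.85 and 6.09 on the fasted arrays. It was above the reference in every liver and highest in the fasted ones, by 2.20 ± 0.37 (SE, limma adjusted p = 0.0307). The 10 table rows around its spot had a median difference of 0.76 in the same direction, and their part in the rise was not tested. P4hb, a protein disulphide isomerase of the endoplasmic reticulum, had a similar pattern of high ratios, at 0.27, 2.62, 1.21 and 2.09 in control and 2.62, 2.81 and 4.19 in fasted livers, but with a difference of 1.66 ± 0.55 (SE) it did not pass (adjusted p = 0.157). The call of Copz2 was lost without control array 1 or 3 or any 1 fasted array, with an adjusted p of at most 0.0914 without 1 array and 0.223 over all alternatives.

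Fosb, a subunit of the AP-1 transcription factor that cells induce early after stimulation, had 0.09, 0.90, 0.26 and 0.38 on the control arrays and 1.87, 2.18 and 1.32 on the fasted arrays. It rose by 1.38 ± 0.24 (SE, limma adjusted p = 0.0373), and the fed high-fat arrays, at 0.91, 2.36 and 1.20, reached as high as the fasted ones. Pik3ip1, an inhibitor of phosphoinositide 3-kinase, the enzyme downstream of the insulin receptor, had -1.40, -0.69, -1.13 and -0.78 in control and -0.26, 0.15 and 0.34 in fasted livers. Its rise was 1.08 ± 0.21 (SE, adjusted p = 0.0495). Sumo2, a ubiquitin-like modifier, rose by 1.17 ± 0.18 (SE, adjusted p = 0.0231), from -0.19, 0.24, 0.05 and 0.46 to 1.05, 1.45 and 1.43. In all of these genes the lowest fasted array stood above the highest control array. Each of the 3 calls was lost when some single array was left out. For Fosb these were control arrays 1, 3 and 4 and fasted arrays 1 and 2, for Pik3ip1 any array but control array 2, and for Sumo2 control arrays 1 and 3 and fasted arrays 2 and 3, with an adjusted p of at most 0.147, 0.165 and 0.122 then.

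Other rises were in genes outside the gene lists. Gabrr1, a subunit of an ionotropic receptor for gamma-aminobutyric acid, had -0.07, -0.03, 0.26 and 0.68 in control and 1.99, 2.24 and 1.40 in fasted livers, a rise of 1.67 ± 0.24 (SE, limma adjusted p = 0.0195). Hpcal1, a neuronal calcium sensor protein, went from 0.24, 0.74, 0.18 and 0.39 to 1.56, 1.43 and 1.72, a rise of 1.18 ± 0.16 (SE, adjusted p = 0.0158). Ctrl, a digestive protease of the chymotrypsin family made in the pancreas, had -0.03, 0.39, 0.04 and -0.28 in control and 0.90, 1.81 and 1.99 in fasted livers. The fed high-fat arrays of Ctrl, at 0.23, -0.10 and 0.46, lay among the control arrays or, on array 3, just above them, and the fasted minus control difference was 1.54 ± 0.26 (SE, adjusted p = 0.0337). Of the 4 pancreas and gut markers tested beside it, 2 were higher and 2 lower, 0 passed, and the median of 0.00917 turned negative under 9 of 20 alternatives. Bex3, Mfsd14b and the uncharacterised 5830448L01Rik rose by 1.28, 1.10 and 2.08 (adjusted p of 0.0231, 0.0219 and 0.0232). Vps26b, a part of the retromer that sorts endosomal cargo, rose by 1.08 (adjusted p = 0.0496). These calls were open to single arrays: Gabrr1 was lost without control array 1 or 3 or fasted array 1 or 2, Hpcal1 without control array 1 or fasted array 1 or 2, Ctrl without control array 1, 3 or 4 or fasted array 2 or 3, Bex3 without any 1 fasted array (it was not tested without control array 1 or 3), Mfsd14b without control array 1 or 3 or fasted array 2, 5830448L01Rik without control array 1 or 4 (it was not tested without fasted array 1 or 3), and Vps26b without any array but control array 4 or fasted array 3. The adjusted p without 1 array was at most 0.180, for Vps26b without fasted array 2.

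**Figure D2:**
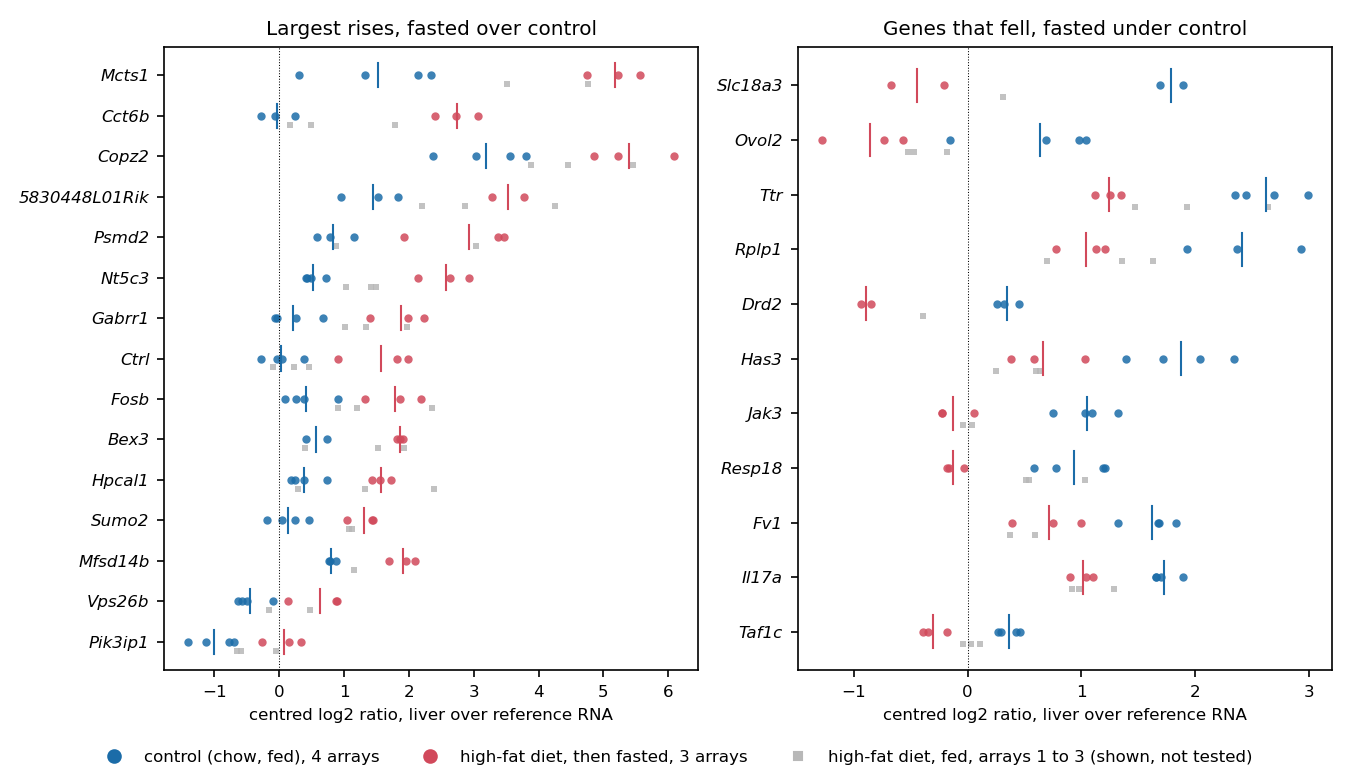
Points are the centred log2 ratio of liver over reference on each array (horizontal axis) for the 15 largest rises (left) and the 11 falls with a symbol (right). Vertical ticks are group means, and grey squares are fed high-fat arrays 1 to 3, which entered no test. No control array of these genes overlaps a fasted one; the fasted arrays of Mcts1 sit between 4.74 and 5.57 and those of Ttr between 1.12 and 1.35.

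Of the 15 tested proteasome genes, 2 rose, beside 0.896% of all tested genes. Psmd2, the Rpn1 subunit of the proteasome cap, had 0.58, 1.15 and 0.78 on control arrays 1 to 3 and 3.37, 3.46 and 1.93 on the fasted arrays, a rise of 2.08 ± 0.38 (SE, limma adjusted p = 0.0495). Psmd11, the Rpn6 subunit, rose by 0.73 ± 0.14 (SE, adjusted p = 0.0472), but its 2 spots disagreed, with 0.16 and 1.30. The list as a whole did not share the direction. Of its members, 6 were higher and 9 lower with a median of -0.06, which turned positive under 6 of 20 alternatives and was 0.06 without control array 2. Ube2d1, a ubiquitin-conjugating enzyme, was higher by 0.89 and missed the threshold (adjusted p = 0.0568, or 0.0387 without control array 2). It passed under 5 of the 16 alternatives that tested it, with an adjusted p of up to 0.113. Of the 20 ubiquitin and autophagy genes 0 passed, beside 1.2% of all tested genes. Rnf5 and Rnf148, both RING finger proteins, and Dda1, a part of cullin ubiquitin ligases, rose by 0.95, 0.75 and 0.83, and Uck2, a kinase of uridine and cytidine, by 0.88. These 4 lie outside the rule for named genes and were chosen after their values were seen. Rnf148 was highest on the fed high-fat arrays, at 0.12, 0.36 and 0.32, against -0.18, -0.18 and -0.11 on the fasted arrays. Of all 35 rises, 3 had a fed high-fat mean above the fasted mean. In 31 it lay between the control and fasted means, and in 1, Psmd11, below the control mean. Psmd2 was lost without any array but control array 2 or fasted array 3, with an adjusted p of at most 0.159 without 1 array. It has no value on control array 4, so its own values were unchanged without that array. Psmd11 was lost without any array but control array 2, with an adjusted p of at most 0.166 without 1 array. Rnf5, Rnf148, Dda1 and Uck2 were each lost without control array 1 or 3 or fasted array 1 or 2, Rnf148 and Uck2 also without fasted array 3, and Rnf148 without control array 2, with an adjusted p of at most 0.116, 0.165, 0.162 and 0.133.

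The gene starts of the called genes were searched for short sequence motifs. RefSeq windows of 300 bases, 250 before and 50 after the start (GRCm38.p6), were matched for 29 genes that rose and 8 that fell, and 5 short motifs were searched on both strands. The forkhead motif TGTTTAC, or GTAAACA on the other strand, to which the fasting-active FoxO factors can bind, was in the windows of 3 of the 29 (10.3%), against 4.05% of all 27025 genes and 3.22% of the tested genes with a window, and in 0 of the 8. The CCAAT box (CCAAT or ATTGG) was in 11 of 29 (37.9%), against 41.1% of all genes. TATAAA or TTTATA was in 3 of 29 (15.7% of all genes), the E-box CACGTG in 1 (8.09%) and the cyclic AMP response element TGACGTCA in 0 (2.03%). These shares are descriptions, and motifs and genes were chosen after the values were seen. The windows with the forkhead letters are shown, with that of Cct6b, which had the smallest p of all genes, as a CCAAT example; capitals mark the match and each reads 5′ to 3′ on the gene's strand. Gabrr1 lies at chr4:33132306-33132605 (plus strand, match from base 234), Mfsd14b at chr13:65112933-65113232 (minus, base 128), Vps26b at chr9:27030045-27030344 (minus, base 143) and Cct6b at chr11:82764272-82764571 (minus, base 270).
Gabrr1: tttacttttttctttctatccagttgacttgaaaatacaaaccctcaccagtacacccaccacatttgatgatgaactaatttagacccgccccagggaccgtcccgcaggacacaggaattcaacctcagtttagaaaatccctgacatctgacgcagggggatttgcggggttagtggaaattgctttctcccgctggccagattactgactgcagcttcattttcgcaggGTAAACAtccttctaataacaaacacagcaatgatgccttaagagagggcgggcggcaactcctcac
Mfsd14b: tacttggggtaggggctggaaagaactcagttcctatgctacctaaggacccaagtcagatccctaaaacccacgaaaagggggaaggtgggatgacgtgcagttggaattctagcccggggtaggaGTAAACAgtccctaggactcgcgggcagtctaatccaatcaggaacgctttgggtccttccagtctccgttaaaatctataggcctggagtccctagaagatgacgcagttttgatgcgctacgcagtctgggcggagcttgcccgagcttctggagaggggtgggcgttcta
Vps26b: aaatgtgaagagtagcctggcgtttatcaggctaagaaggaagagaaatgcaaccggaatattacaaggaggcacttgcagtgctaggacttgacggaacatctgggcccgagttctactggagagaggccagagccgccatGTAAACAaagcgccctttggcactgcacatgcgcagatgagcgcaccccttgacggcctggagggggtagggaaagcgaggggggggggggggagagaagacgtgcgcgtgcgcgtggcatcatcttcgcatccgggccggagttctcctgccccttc
Cct6b: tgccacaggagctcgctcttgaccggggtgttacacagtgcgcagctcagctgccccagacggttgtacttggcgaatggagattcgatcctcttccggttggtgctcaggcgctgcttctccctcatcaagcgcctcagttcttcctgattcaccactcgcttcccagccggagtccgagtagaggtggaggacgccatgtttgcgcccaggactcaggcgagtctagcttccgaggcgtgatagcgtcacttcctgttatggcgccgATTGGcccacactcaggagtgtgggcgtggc

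Among the falls, Ttr was the clearest liver gene. It encodes transthyretin, the plasma carrier of thyroxine and of the retinol-binding protein, which hepatocytes secrete. It had 2.69, 2.99, 2.45 and 2.35 on the control arrays, 1.12, 1.35 and 1.25 on the fasted arrays and 2.64, 1.47 and 1.93 on the fed high-fat arrays. The fasted arrays were lower than all others and close to each other, while one fed high-fat array lay among the controls. Ttr fell by 1.38 ± 0.17 on the log2 scale (SE, limma adjusted p = 0.00939), and the call was lost only in the 3-group fit on 11 arrays (adjusted p = 0.124). In bulk liver RNA, fewer cells of a type and less RNA per cell cannot be told apart, for this gene as for those that follow.

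Rplp1, a protein of the ribosomal stalk, had 2.93, 2.37 and 1.93 on control arrays 2 to 4 and 0.78, 1.13 and 1.21 on the fasted arrays. Fed high-fat arrays gave 1.36, 0.70 and 1.63, also below every control array. It fell by 1.37 ± 0.25 (SE, limma adjusted p = 0.0495). Rpsa, of the small ribosomal subunit, had a difference of -1.16 and did not pass (adjusted p = 0.0713). Of 15 tested ribosomal protein genes, 11 were lower and 4 higher. Of them 1 fell and 0 rose, beside 0.307% and 0.896% of all tested genes. The list's median of -0.11 turned to 0.08 with the values as deposited. It was also positive when genes had to be filled on all 7 arrays. Rplp1 was lost without control array 1 or 3 or any 1 fasted array, with an adjusted p of at most 0.154. It has no value on control array 1, so its own values were unchanged without that array.

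The remaining falls with a symbol were in genes outside the gene lists. Jak3, the kinase that signals from cytokine receptors of lymphocytes, had 1.03, 1.09, 0.75 and 1.32 in control and -0.22, 0.06 and -0.22 in fasted livers, a difference of -1.17 ± 0.16 (SE, limma adjusted p = 0.0158). Il17a, a cytokine of T cells, had 1.70, 1.66, 1.89 and 1.66 against 1.04, 1.10 and 0.90, a difference of -0.71 ± 0.13 (SE, adjusted p = 0.0405). Both had control and fasted arrays that did not overlap, although the lymphocyte and granulocyte markers as a list lay on the other side. Fed high-fat arrays 1 and 3 gave 0.04 and -0.04 for Jak3, and arrays 1 to 3 gave 1.29, 0.92 and 0.98 for Il17a. These too lay below every control array. Has3, a hyaluronan synthase, had 2.04, 1.39, 2.34 and 1.72 in control, 0.58, 0.38 and 1.03 in fasted and 0.60, 0.64 and 0.25 in fed high-fat livers. It fell by 1.21 (adjusted p = 0.0496), and its fed high-fat arrays lay as low as the fasted ones. Slc18a3, the vesicular transporter of acetylcholine, was filled on only 2 arrays of each group, at 1.89 and 1.69 against -0.21 and -0.67, and fell by 2.23 ± 0.23 (SE, adjusted p = 0.0158). The dopamine receptor gene Drd2 and Resp18, of neuroendocrine secretory cells, fell by 1.24 and 1.06 (adjusted p of 0.0230 and 0.0306), and the zinc finger factor Ovol2 by 1.50 (adjusted p = 0.0495). The retroviral restriction factor Fv1 and Taf1c, of the RNA polymerase I machinery, fell by 0.91 and 0.67 (adjusted p of 0.0496 and 0.0468). Jak3 was lost without control array 1 or fasted array 1, with an adjusted p of at most 0.0656. Drd2 was lost without control array 1 or 3, with an adjusted p of at most 0.0724. Its only fasted values were on arrays 1 and 2, so it was not tested without either of these. Il17a, Resp18, Has3, Ovol2, Fv1 and Taf1c were each lost without control array 3 or any 1 fasted array, all but Ovol2 also without control array 1, Has3, Ovol2 and Taf1c also without control array 4 and Fv1 without control array 2, with an adjusted p of at most 0.176.

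Liver functions were followed through gene lists, of which 31 had 4 or more tested members. Among all tested genes 49.9% were lower, 50.1% higher and 1.2% called, and the counts of every list are to be read beside these shares. A list with 0 calls is near the share of 1.2%. Hepatocyte markers were lower after the high-fat diet and fast for 14 of 15 tested members, against 49.9% of all tested genes, with a median of -0.61 against 0.000833. Of them 1 fell (Ttr), beside 0.307% of all tested genes, and 0 rose. In all, 7 were lower with an unadjusted p under 0.05, as were 8.66% of all genes. The member on the other side was Ambp, the precursor of alpha-1-microglobulin, at 0.24, which turned to -0.24 without control array 1. The median was -0.33 with quantile normalisation, its smallest size over the alternatives, and -0.37 without control array 2, where 2 of 14 members fell (Ttr and Cyp3a11) and 7 were lower at an unadjusted p under 0.05, beside 8.14% of all genes. The mean over the 12 fully filled members was 1.75 to 1.90 on control arrays 1, 3 and 4, 2.86 on control array 2 and 1.34 to 1.55 on the fasted arrays, so the fasted arrays lay below each control array with or without control array 2.

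**Figure D3:**
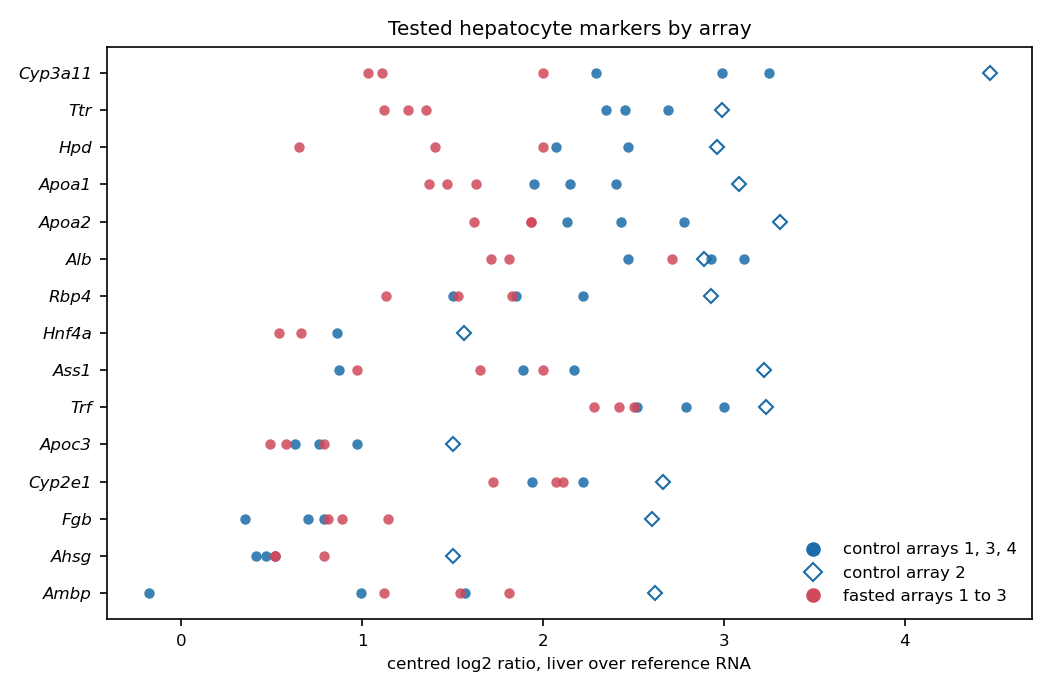
Centred log2 ratios (horizontal axis) of the 15 tested hepatocyte markers on each array, ordered by their fasted minus control difference. Open diamonds mark control array 2, which is the highest array for 14 of the 15 genes; fasted arrays (red) lie below all control arrays (blue) for Cyp3a11, Ttr, Hpd, Apoa1, Apoa2, Hnf4a and Trf.

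Other secreted plasma proteins had lower ratios in fasted livers without passing. Alb, albumin, had 3.11, 2.89, 2.47 and 2.93 in control and 1.81, 1.71 and 2.71 in fasted livers. The groups overlapped through fasted array 3, and the difference was -0.77 ± 0.25 (SE, limma adjusted p = 0.153, or 0.0499 without fasted array 3). Alb passed under 1 of 19 alternatives, with an adjusted p of up to 0.483. Apoa1, the main protein of high-density lipoprotein, had 2.40, 3.08, 2.15 and 1.95 against 1.37, 1.47 and 1.63, with no overlap. The difference was -0.91 ± 0.24 (SE, adjusted p = 0.0983). Apoa1 was also below every control array on the fed high-fat arrays, at 1.03, 1.26 and 1.88. Its partner Apoa2 had -0.84 (adjusted p = 0.131). Over the lipoprotein list 7 of 12 genes were lower and 0 passed, beside 49.9% and 1.2% of all tested genes, so both counts are near those shares. The list's median was -0.31, or -0.23 without control array 2. The iron carrier transferrin, Trf, had -0.48 (adjusted p = 0.188). Hamp, hepcidin, the hormone that limits iron export, had 0.59, 1.81 and 1.66 on control arrays 1 to 3 and 0.12, 0.09 and 0.07 on the fasted arrays. The fasted values of Hamp were nearly equal while the control values were spread. The difference of -1.26 ± 0.29 (SE) did not pass (adjusted p = 0.0765, or 0.00915 without control array 1). Hamp passed under 3 of the 16 alternatives that tested it, with an adjusted p of up to 0.228. Of the 21 acute phase, complement and coagulation genes 19 were lower and 0 passed, with a median of -0.39. Without control array 2, 13 of 20 were lower and 7 higher, with a median of -0.17. At an unadjusted p under 0.05, 2 were higher and 1 lower, beside 9.61% and 8.14% of all genes. The list mean on that array was 1.69, while the other control arrays lay between 0.50 and 0.65 and the fasted arrays between 0.47 and 0.73. Saa4, the constitutive serum amyloid A, had -0.65 (adjusted p = 0.220).

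Cytochrome P450 enzymes of drugs and steroids were mostly lower in fasted livers. Cyp3a11, the main drug-oxidising P450 of mouse liver, had 2.99, 4.47, 3.25 and 2.29 in control, 2.00, 1.11 and 1.03 in fasted and 0.92, 1.37 and 1.52 in fed high-fat livers. Every fasted and every fed high-fat array lay below every control array. The fasted minus control difference was -1.87 ± 0.45 (SE) and missed the threshold (limma adjusted p = 0.0759). Without control array 2 it was -1.46 and passed (adjusted p = 0.0439). Cyp3a11 passed under 5 of 19 alternatives, with an adjusted p of up to 0.237. Cyp2c29, which oxidises drugs and fatty acids, had -1.54 ± 0.37 (SE, adjusted p = 0.0793, or 0.0364 without control array 3). It went from 2.66, 3.01, 1.51 and 2.37 to 1.07 and 0.63 on fasted arrays 1 and 2. The fed high-fat arrays, at 0.62, 0.51 and 0.87, also lay below every control array. Cyp2c29 passed under 4 of the 16 alternatives that tested it, with an adjusted p of up to 0.15. Cyp2e1, the ethanol-metabolising P450, had a smaller difference of -0.31 (adjusted p = 0.475) that turned to 0.02 with quantile normalisation. Of the 12 list members tested, among them the nuclear receptor gene Nr1i2 at 0.04, 9 were lower and 0 passed. At an unadjusted p under 0.05, 3 were lower, beside 8.66% of all tested genes. The median was -0.30, or -0.07 without control array 2, where 8 of the 12 list members were lower.

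Enzymes of conjugation and detoxification were lower for 22 of 27 and 0 were called, beside 49.9% and 1.2% of all tested genes. Their median was -0.23, or -0.06 without control array 2. Nnmt, which methylates nicotinamide, had 1.01, 1.09, 1.19 and 0.63 in control and 0.27 and 0.08 on fasted arrays 1 and 2. The difference was -0.81 ± 0.19 (SE, limma adjusted p = 0.0773, or 0.0448 without control array 4). Nnmt passed under 3 of the 16 alternatives that tested it, with an adjusted p of up to 0.186. Gstm3, a glutathione transferase, had -0.98 (adjusted p = 0.109). Bile acid genes were lower for 7 of 10 and 0 were called, beside the same 49.9% and 1.2%. Their median was -0.53, or -0.20 without control array 2. In this list Cyp8b1, the 12-alpha-hydroxylase that makes cholic acid, had 4.14 and 2.98 on control arrays 2 and 3 and 2.07 and 1.42 on fasted arrays 1 and 2, a difference of -1.81 ± 0.41 (SE, adjusted p = 0.0899). Akr1c6, a hydroxysteroid dehydrogenase, had -0.92 (adjusted p = 0.109). Aldh1a1, which oxidises retinal to retinoic acid, had 1.26, 3.06, 2.33 and 1.97 against 1.50, 1.08 and 1.06, and the groups overlapped (difference -0.94, adjusted p = 0.198). Its fed high-fat arrays, at 0.66, 0.42 and 0.78, lay below every control and every fasted array. The retinoid list held 1 fall, Ttr, among 7 genes, beside 0.307% of all tested genes. Its median of -0.26 was -0.05 without control array 2 and turned positive with array weights. On the other side Crabp2, also of this list, had 0.56 without overlap and did not pass (limma adjusted p = 0.153).

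**Figure D4:**
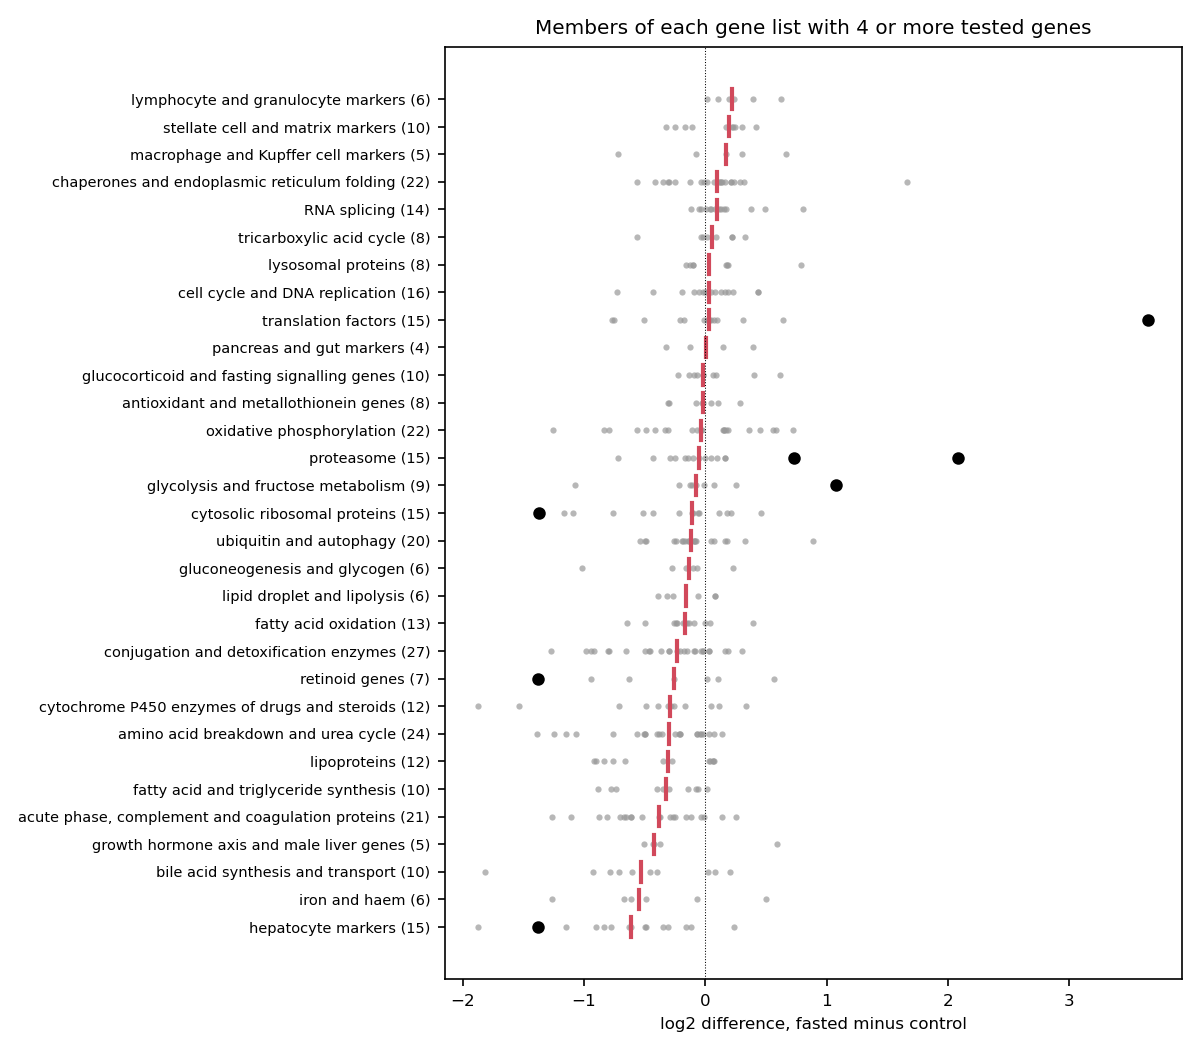
Each point is the log2 difference of fasted minus control (horizontal axis) for 1 tested gene of a list, with the number of tested genes after the list's name; black points passed at an adjusted p under 0.05 and red bars are list medians. Medians run from -0.61 for hepatocyte markers to 0.22 for lymphocyte and granulocyte markers, against 0.000833 over all genes.

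Genes of lipid synthesis and storage were lower in the main, without a call. In fatty acid and triglyceride synthesis 9 of 10 genes were lower and 0 passed, beside 49.9% and 1.2% of all tested genes. The median was -0.32, or -0.16 without control array 2. Scd1, the stearoyl-CoA desaturase that makes oleate, had 2.25, 2.62, 1.54 and 1.55 in control, 1.35 and 1.15 in fasted and 2.57, 1.92 and 2.00 in fed high-fat livers. The 2 filled fasted arrays lay below all control arrays and the fed high-fat arrays among them, and the fasted minus control difference was -0.74 ± 0.31 (SE, limma adjusted p = 0.250). Fasn, fatty acid synthase, had 0.37, 0.65, 1.20 and 0.49 against 0.54, 0.41 and 0.04, with overlap (difference -0.35, adjusted p = 0.422). Agpat2, of triglyceride synthesis, had -0.78 (adjusted p = 0.264). Pnpla2, the triglyceride lipase of lipid droplets, had 1.63, 1.89, 1.75 and 1.52 against 1.39, 1.14 and 1.39, without overlap but without passing (difference -0.39, adjusted p = 0.186). The droplet protein Cidec had 0.08 (adjusted p = 0.798). Cholesterol synthesis was covered by 3 genes, among them Fdft1 at -0.58 and Ebp at -0.45 (adjusted p of 0.382 and 0.421).

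The genes a fast is best known to induce were little covered. Of 39 fasting and liver genes looked for, 29 have a spot under the symbol searched and 12 could be tested. Of these 29, 11, among them Pdk4, Fgf21, Pck1, Angptl4, Igfbp1 and Ppargc1a, were empty on all 7 arrays. G6pc1 is not among the 29, since its spot carries the earlier symbol G6pc. That spot had 2.82 and 1.54 on control arrays 2 and 3 and was empty on the fasted arrays, so it was not tested. In fatty acid oxidation, 11 of 13 tested genes were lower, 0 passed and 0 had an unadjusted p under 0.05. The list's median of -0.17 was -0.01 without control array 2 and turned positive with array weights. Cpt1a, the gate of mitochondrial fatty acid import, had -0.09, 0.87 and -0.12 on control arrays 1 to 3 and 0.19 and -0.06 on fasted arrays 1 and 3, with a difference of -0.15 (limma adjusted p = 0.823) that turned to 0.17 without control array 2. Cyp4a14, a fatty acid omega-hydroxylase and target of PPAR alpha, had 1.95 and 0.93 on control arrays 2 and 4 and 1.75, 1.99 and 1.75 on the fasted arrays, with a difference of 0.39 (adjusted p = 0.520). The fasted arrays lay within the range of the controls for Cpt1a and near or just above the higher control array for Cyp4a14. Acads and Slc27a2, of fatty acid breakdown and uptake, had -0.50 and -0.65 (adjusted p of 0.398 and 0.449). Among the 10 glucocorticoid and fasting signalling genes, 4 were higher and 0 passed, and Cebpb, a factor of liver gene regulation, had 0.61 (adjusted p = 0.228). Ketone body genes had no tested member.

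In carbohydrate metabolism Pfkl, the liver phosphofructokinase, rose. It had -0.17, -0.26, -0.40 and 0.00 on the control arrays and 1.09, 1.14 and 0.37 on the fasted arrays, a difference of 1.07 ± 0.20 (SE, limma adjusted p = 0.0468). The fed high-fat arrays, at 0.00, 0.11 and 0.69, overlapped both groups. Pklr, liver pyruvate kinase, a later step of the same pathway, had -0.27, 0.32, -0.18 and 0.39 against 0.08, 0.07 and 0.02, a difference of -0.01 (adjusted p = 0.986) with no stable sign. Pdk2, a kinase that inhibits pyruvate dehydrogenase, had -1.07 (adjusted p = 0.131). Of 9 genes of glycolysis and fructose metabolism 1 rose, beside 0.896% of all tested genes, and 6 were lower. The list's median of -0.08 changed sign under 5 of 20 alternatives and was 0.06 without control array 2. The 10 rows around the Pfkl spot had a median difference of -0.51, against its direction, and its call was lost without any array but control array 2 or fasted array 3, with an adjusted p of at most 0.165.

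Amino acid breakdown and the urea cycle were lower for 21 of 24 genes, with 0 called and a median of -0.30, or -0.11 without control array 2, where 12 of 20 were lower. Asl, argininosuccinate lyase of the urea cycle, had 0.79, 0.20 and 0.31 on control arrays 2 to 4 and -0.38, -0.24 and -0.37 on the fasted arrays. The groups did not overlap, and the difference of -0.76 ± 0.18 (SE) did not pass (limma adjusted p = 0.0773). Hpd, of tyrosine breakdown, had -1.15 (adjusted p = 0.140). Of 22 genes of oxidative phosphorylation 10 were higher, 12 lower and 0 called. Their median of -0.03 changed sign under 10 of 20 alternatives and was 0.13 without control array 2. The assembly factor Ndufaf5 had 0.72 (adjusted p = 0.0572) and the complex I subunit Ndufb5 -0.49 (adjusted p = 0.114). Of 8 genes of the tricarboxylic acid cycle 5 were higher and 0 called, with Mdh2, malate dehydrogenase, at 0.33 and Fh1, fumarase, at -0.56 (adjusted p of 0.244 and 0.230). Of 15 translation factors 1 rose (Mcts1), beside 0.896% of all tested genes. Eif6, an anti-association factor of ribosomes, had 0.64 with control values of -0.73 to -0.71 on all 4 arrays (adjusted p = 0.0503, or 0.0489 without control array 2). It passed under 8 of 19 alternatives, with an adjusted p of up to 0.181. Genes of male-type liver secretion, Hsd3b5 and Mup3, had -0.43 and -0.37 (adjusted p of 0.211 and 0.258).

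Markers of other cell types stood slightly higher in the fasted livers. Of 35 tested markers, 21 were higher and 14 lower, and 1 rose, beside 0.896% of all tested genes. The median was 0.12, or 0.03 without control array 2. Over the 21 filled on all arrays the mean lay between -0.16 and -0.04 on control arrays and between -0.10 and -0.01 on fasted arrays, so the groups overlapped. The marker that rose was Kdr, the endothelial receptor for vascular endothelial growth factor. It had 0.11, 0.42, -0.08 and 0.38 in control and 1.22, 0.97 and 1.14 in fasted livers, a difference of 0.90 ± 0.16 (SE, limma adjusted p = 0.0373). The other 2 endothelial markers tested were lower, so the rise of Kdr was not shared. All 6 lymphocyte and granulocyte markers were higher, with a median of 0.22 and 0 called. S100a9, a calcium-binding protein of neutrophils, had 0.62 (adjusted p = 0.109) and Ighm, the immunoglobulin mu chain, 0.39 (adjusted p = 0.231). Of 5 macrophage markers, Cd163, a scavenger receptor for haemoglobin, had 0.66 (adjusted p = 0.0944) and Ptprc, CD45, of all leukocytes, -0.72 (adjusted p = 0.178). Among 10 stellate cell and matrix markers 6 were higher and 0 passed, with Pdgfrb at 0.42 and Dcn at -0.33 (adjusted p of 0.161 and 0.319). Of the 141 such markers with a spot, 86 were empty on all 7 arrays. The part of these cells in the liver gene results was not tested. Kdr was lost without control array 1 or 3 or any 1 fasted array, with an adjusted p of at most 0.131 without 1 array and 0.219 over all alternatives.

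**Figure D5:**
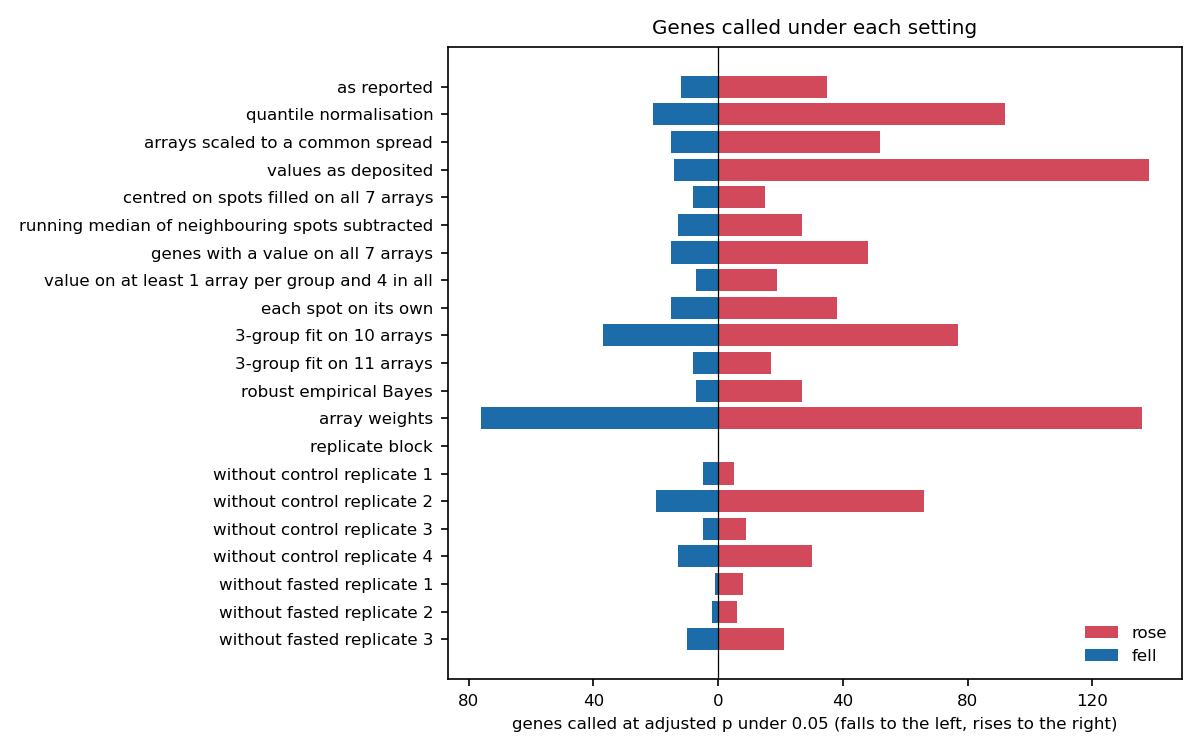
Bars give the number of genes called at an adjusted p under 0.05 under each setting, rises to the right and falls to the left. The reported setting gives 35 and 12, array weights 136 and 76, and the replicate block 0; leaving out 1 array gives between 8 and 86 calls in all.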

How the data were processed

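The log2 ratios the authors deposited (liver Cy5 over reference Cy3, dyes per the labels) were used as given. Their base, the scanner, the normalisation and the rule behind the empty cells are not stated in these sources, and signal over background is unknown. Each array was centred on its median, and spots of one symbol were averaged. Of 17280 spots, 14718 carry 1 symbol, 1 several and 2561 none. Genes with a value on 2 or more arrays of each group were tested on the 7 arrays with limma 3.58.1 in R 4.3.3 (two-sided, Benjamini-Hochberg over all 3905 genes, called at an adjusted p under 0.05), and checked on simulated data. P-values set the difference of group means against the spread between these arrays. That spread is partly borrowed from other genes, with 4.52 prior degrees of freedom beside 5 residual ones when all 7 arrays are filled. The borrowed part is larger for genes filled on fewer arrays.

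The rule for named genes gave 103 genes, of which the text gives a part. It took up to 15 genes in each direction by size, from the called genes with a symbol whose groups did not overlap. It also took up to 2 members of each list with the smallest p besides every called member. The 39 fasting and liver genes were added wherever tested. Some genes of the rule were left out of the text, among them Mt2, Ccnd1, Psap and Ehd3. The members and the 40 lists were chosen with earlier results of these data known. Fed high-fat array 4 correlated with no other array (r of -0.03 to 0.01) and its levels are not cited. Alternatives covered normalisation, filters, spot averaging, samples in the fit, variance model and each array left out. Replicate numbers were not taken as pairs, although these few arrays cannot settle whether they were.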

Additional observations from a re-analysis of the deposited data

Results flagged for a closer look

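On the 4 control arrays, 91 sets of values were looked at for an array far from the other 3, and 7 stood out (7.7%; chance gives about 1 in 20). Control array 2 was the outlying array in 4 of them. Its mean level of the hepatocyte markers was 2.86, where the other 3 lay between 1.75 and 1.90, of the acute phase, complement and coagulation proteins 1.69 against 0.50 to 0.65, of amino acid breakdown and urea cycle genes 0.72 against 0.12 to 0.22, and of the lymphocyte and granulocyte markers -0.387 against -0.04 to -0.01. Control array 4 was high for the RNA splicing genes, at 0.315 against 0.06 to 0.10, and for the lysosomal proteins, at 0.443 against 0.26 to 0.28. Lipe, the hormone-sensitive lipase, was at -0.71 on control array 1, against -0.43 to -0.38 on the others.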

How the results depend on the processing

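The 47 calls (35 rises, 12 falls) became 113 (92 and 21) with quantile normalisation, 152 (138 and 14) with values as deposited, 23 (15 and 8) when centred on spots filled on all 7 arrays, 26 (19 and 7) with a value on 1 array per group and 4 in all, 114 (77 and 37) in the 3-group fit on 10 arrays, 25 (17 and 8) on 11 arrays, 34 (27 and 7) with robust empirical Bayes and 212 (136 and 76) with array weights. They were 67 with scaled arrays, 40 with neighbouring spots subtracted, 63 with genes filled on all 7 arrays and 53 with each spot on its own. Leaving out 1 array gave 8 to 86 calls, 5 to 66 rises and 1 to 20 falls. The causes of these moves were not tested. With the replicate number as a replicate block, limma called 0 of 3148 genes (0 rises, 0 falls; 679 at an unadjusted p under 0.05). Same-numbered arrays deviated together with r of 0.13, 0.08 and 0.02, the first being the highest of all control and fasted pairs. Fasted arrays 2 and 3 correlated better with control arrays 3 and 4 (0.12 and 0.07). The numbers were not taken as pairs, although these few arrays cannot settle whether they were. Of the 47 called genes 0 changed sign under any alternative that tested them. Among the genes that did not pass, only 51 were followed through the alternatives, and the sign changes given next are among these 51. Sign changed for 5 genes that did not pass: Cyp2e1 had 0.023 with quantile normalisation; Pklr 0.17 as deposited, 0.094 with neighbours subtracted, 0.11 with array weights, 0.10 with the replicate block and -0.12 to 0.10 without 1 array; Cpt1a 0.013 with neighbours subtracted, 0.065 with array weights and -0.33 to 0.17 without 1 array; Txnip, an inhibitor of thioredoxin, 0.11 as deposited, 0.11 with neighbours subtracted, 0.027 with array weights and -0.19 to 0.063 without 1 array; and Ambp -0.24 to 0.70 without 1 array. With 3 against 4 arrays, small differences are not detectable, and the tested genes are those filled in both groups.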

Other observations

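Some liver genes could not be tested because the fasted arrays were empty for them. Of 5928 symbols with a value on any of the 7 arrays, 337 (5.68%) were filled on 2 or more control arrays and on 0 fasted arrays, and 104 (1.75%) the other way round. These 2 counts are not mirror images, since there are 4 control and 3 fasted arrays. Under another cut, 99 symbols were filled on 3 or 4 control and 0 fasted arrays. The other way, 121 were filled on 0 or 1 control and 3 fasted arrays. The set of 337 held Acly, ATP citrate lyase, which supplies acetyl-CoA for fatty acid synthesis. Acly had 2.10, 1.13 and 0.11 on control arrays 2, 3 and 4. Thrsp, a lipogenic protein, had 2.90 and 1.93 on control arrays 2 and 3. Fga, the fibrinogen alpha chain, had 1.95, 2.75, 2.23 and 2.04 on the control arrays and 1.04, 0.86 and 1.49 on the fed high-fat arrays. Cbs, cystathionine beta-synthase, had 2.43, 0.63 and 1.14 on control arrays 2, 3 and 4. In the set of 104, Atf5, a factor of stress responses, had 1.73 and 2.25 on fasted arrays 1 and 3. These genes were chosen after their values were seen, and no level follows from an empty cell.

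Of the 5 called spots without a symbol, 4 rose and 1 fell. The largest of these rises were 3.07 and 2.97, next in size only to Mcts1 among all rises. No called spot lay in a table row next to another called spot, and the rows around 4 of the 50 called spots had a median difference above 0.5 in size (Copz2, Gabrr1, Ovol2 and Pfkl). For the spots of Fv1, Resp18, Rnf148, Six2, Taf1c and Zfp618 and for 1 spot of Vps26b, the rows around gave no difference. Those spots could not be looked at in this way.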
